A study of Mus musculus with 18 samples.

Results

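The 10 genes described here belong to the antioxidant response directed by NRF2. They comprise *Nfe2l2*, which encodes NRF2 itself, *Keap1*, which encodes its inhibitor, and 8 genes known as NRF2 targets (*Gclc*, *Gclm*, *Slc7a11*, *Gpx2*, *Txnrd1*, *Srxn1*, *Nqo1* and *Hmox1*). They were chosen by symbol, matched to Entrez identifiers among the 27179 genes counted in 18 mouse libraries, and all 10 passed the filter on low counts. RNA had been sequenced from 6 sorted cell populations of normal, untreated C57BL/6 mice, with 3 libraries for each population. The study's methods give male mice of 8 to 12 weeks. From the tracheas of mice 1 to 3 came basal stem cells (BSCs), sorted as NGFR-positive cells, and a non-basal population of NGFR-negative cells. From the lungs of mice 4 to 6 came 4 populations. A pair of airway gates, positive for EpCAM and CD104, was split into CD24hi cells, which the labels call enriched in ciliated cells, and CD24lo cells, enriched in club cells. Alveolar cells were EpCAM-positive and low for CD104, and EpCAM-negative cells formed a non-epithelial population. The gates enrich cell types and do not purify them. Tracheal and lung cells differ in organ, mouse and dissociation method as well as in cell type, and these cannot be told apart.

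Under basal conditions the NRF2 protein is bound by KEAP1, which directs it to ubiquitination and proteasomal degradation. Oxidants and electrophiles modify cysteines of KEAP1, NRF2 accumulates, and together with a small MAF protein it activates genes that carry antioxidant response elements (AREs). Their products make glutathione, keep thioredoxin reduced, break down haem and detoxify quinones, and airway epithelium, which meets inhaled oxidants directly, is a known site of this response. Because NRF2 is controlled mainly at the protein level, its mRNA does not measure its activity.

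Levels are given below as RPKM (read counts divided by gene length and by sequencing depth, with the depth scaled between libraries by the TMM method), which can be compared between genes, and are written as mean ± SD over 3 libraries. Differences between populations are log2 fold changes with their standard errors (SE) and adjusted p-values from edgeR's quasi-likelihood test, fitted to all 17989 genes that passed the filter, with a threshold of 0.05. The SE was derived from the test, as the absolute log2 fold change divided by the square root of its F statistic. Libraries held 29317215 to 32993621 counted reads in trachea and 9811503 to 13208897 in lung. Markers of basal, ciliated, alveolar type 2 and secretory cells followed the labels. Summed RPKM of 4 basal markers was 1717 to 1801 in BSCs and at most 157 in any other library. That of 4 ciliated markers was 4829 to 5718 in CD24hi cells and at most 931 elsewhere. That of 4 alveolar type 2 markers was 163940 to 183430 in alveolar cells and at most 7505 elsewhere. That of 4 secretory markers was 497300 to 699640 in CD24lo cells, against 102520 to 108500 in non-basal cells, 72911 to 96126 in CD24hi cells and at most 11989 elsewhere. Endothelial markers did not set EpCAM-negative cells apart from the airway gates. Summed RPKM of 4 of them was 112 to 257 in CD24lo, 52.7 to 198 in CD24hi and 128 to 222 in EpCAM-negative cells. Alveolar libraries had 43.4 to 82.0 and tracheal libraries at most 0.672. The part of endothelial cells in the members' levels was not tested.

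Since AREs define this pathway, the promoters of the members were searched for the ARE core, TGACNNNGC, on both strands. RefSeq windows of 300 bases, 250 before and 50 after the start, were at hand for 8 of the 10 members in GRCm38.p6, with none for *Hmox1* and *Gclc*. The start is the one a window was built on, and for the *Gclm* and *Txnrd1* windows shown it lies inside the gene interval given below. A match was found in 4 of the 8 genes, against 14.0% of 27025 genes with such windows. The matches that lie before a start are shown because their genes differ in expression pattern below. They are written 5′ to 3′ on the gene's strand, with the 9 matching bases in capitals. The *Nfe2l2* match (chr2:75704880-75704913, gene on the minus strand) began 240 bases before the start. The *Gclm* match (chr3:122245408-122245446) began 134 bases before it, and the *Txnrd1* match (chr10:82859099-82859137), in 1 of 3 windows, 92 bases before it, and both were on the reverse strand.
Nfe2l2: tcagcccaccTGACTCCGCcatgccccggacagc
Gclm: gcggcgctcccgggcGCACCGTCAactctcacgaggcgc
Txnrd1: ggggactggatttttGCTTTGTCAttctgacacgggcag
The *Srxn1* match lay 29 bases after the start. The letters were not found in the windows of *Keap1*, *Nqo1*, *Slc7a11* and *Gpx2*, which says nothing of elements outside 300 bases.

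The members did not share an expression pattern. Mean levels were highest in CD24hi cells for 4 members (*Gclm*, *Txnrd1*, *Srxn1* and *Nqo1*), in non-basal cells for 3 (*Nfe2l2*, *Keap1* and *Gpx2*), in alveolar cells for 2 (*Gclc* and *Hmox1*) and in CD24lo cells for *Slc7a11*. They were lowest in EpCAM-negative cells for 5 members, in alveolar cells for 3 (*Gclm*, *Slc7a11* and *Nqo1*) and in BSCs for 2 (*Srxn1* and *Hmox1*). The highest population mean exceeded the lowest by 1.44-fold for *Keap1* and 170.3-fold for *Gpx2*, against a median of 4.65-fold over all genes tested. When the populations were ordered by level for each member, 27 of the 50 neighbouring pairs differed in edgeR's test, against a background of 33.3% of such pairs over all genes. The pairs follow from the order, so a pair that differs is not independent of it. The fit behind them has no block for the mouse.

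**Figure D1:**
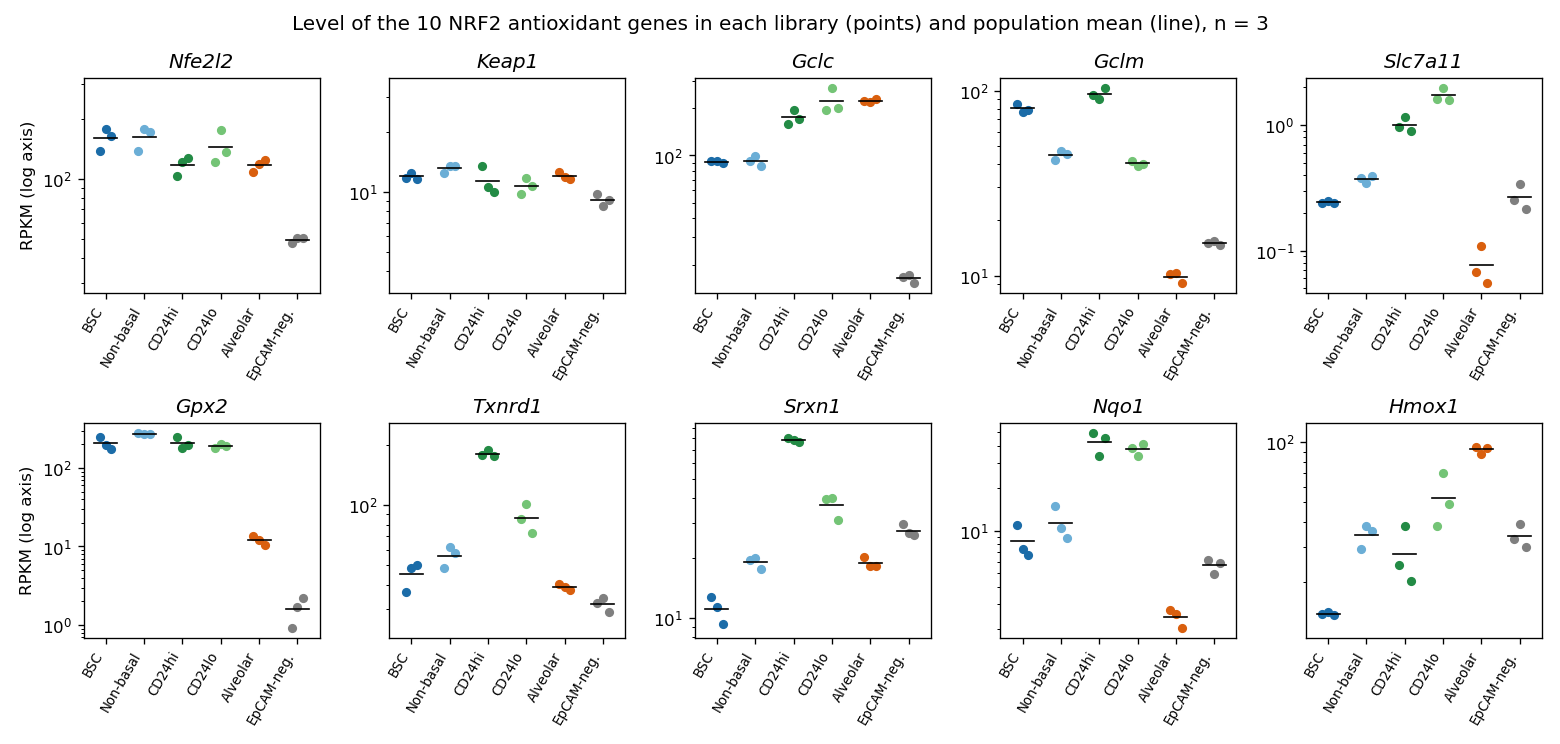
RPKM (log axes, each panel with its own range) of the 10 genes in the 18 libraries, with a point for each library and a line at the mean of the 3 libraries of a population. *Keap1* stays between 8.51 and 13.6 RPKM in all libraries, *Gpx2* is below 14 RPKM in alveolar and EpCAM-negative cells and above 176 RPKM elsewhere, and *Hmox1* is highest in alveolar cells and lowest in BSCs.

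The regulators varied least. *Nfe2l2* (Entrez 18024, chr2:75675513-75704663 in GRCm38/mm10) was at 138.3, 178.5 and 163.6 RPKM in the BSC libraries, with a mean of 160.1 ± 20.3 RPKM, and at 162 ± 21.3 RPKM in non-basal cells. CD24lo cells had 145 ± 28.1, CD24hi cells 117 ± 12.7 and alveolar cells 117 ± 8.39 RPKM. EpCAM-negative cells stood apart, at 47.5, 50.4 and 50.1 RPKM, below every epithelial library. Of the 5 neighbouring pairs, that of alveolar and EpCAM-negative cells alone differed (log2 fold change 1.24 ± 0.14 SE, edgeR adjusted p = 3.46e-07). With the mouse as a block, which the order of levels does not use, CD24lo and CD24hi cells differed too (adjusted p = 0.0171). *Keap1* (Entrez 50868, chr9:21229730-21239332) encodes the substrate adaptor that hands NRF2 to its ubiquitin ligase. Its mean ran from 13.2 RPKM in non-basal cells to 9.13 RPKM in EpCAM-negative cells, and 0 of its 5 neighbouring pairs differed.

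The subunits of glutamate-cysteine ligase, the rate-limiting enzyme of glutathione synthesis, had different patterns. *Gclc* (Entrez 14629, chr9:77754535-77794489) encodes the catalytic subunit. Its libraries held 222.9, 218.4 and 230.4 RPKM in alveolar cells and 196.4, 269.2 and 201.2 RPKM in CD24lo cells. CD24hi cells had 159.7, 196.5 and 171.2 RPKM. Both tracheal populations were lower, at 91.2 ± 1.496 RPKM in BSCs and 92.6 ± 6.74 RPKM in non-basal cells, and EpCAM-negative cells lowest, at 16.4 ± 1.03 RPKM. Alveolar and CD24lo cells did not differ beyond their spread, nor did non-basal cells and BSCs, whereas the other 3 neighbouring pairs did.

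*Gclm* (Entrez 14630, chr3:122245487-122267215) encodes the modifier subunit, which raises the efficiency of the enzyme. It was highest in CD24hi cells, at 94.4, 89.6 and 103.1 RPKM, followed by BSCs, at 85.1, 76.8 and 78.9 RPKM. Non-basal cells had 44.8 ± 2.49 and CD24lo cells 40.4 ± 1.203 RPKM, which did not differ. EpCAM-negative cells had 14.97 ± 0.340 RPKM and alveolar cells 10.2, 10.3 and 9.06 RPKM, the lowest of all libraries. Alveolar cells thus held the least *Gclm* mRNA, with *Gclc* at the level of CD24lo cells, within the spread. The ratio of *Gclc* to *Gclm* RPKM, which does not depend on how libraries are scaled, was 1.14 ± 0.0603 in BSCs and 1.10 ± 0.0496 in EpCAM-negative cells. It was 1.85 ± 0.298 in CD24hi cells, 2.07 ± 0.162 in non-basal cells and 5.52 ± 1.16 in CD24lo cells. In the alveolar libraries it was 21.9, 21.3 and 25.4, above every other library, the next of which was a CD24lo library at 6.84. Neither number measures protein.

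**Figure D2:**
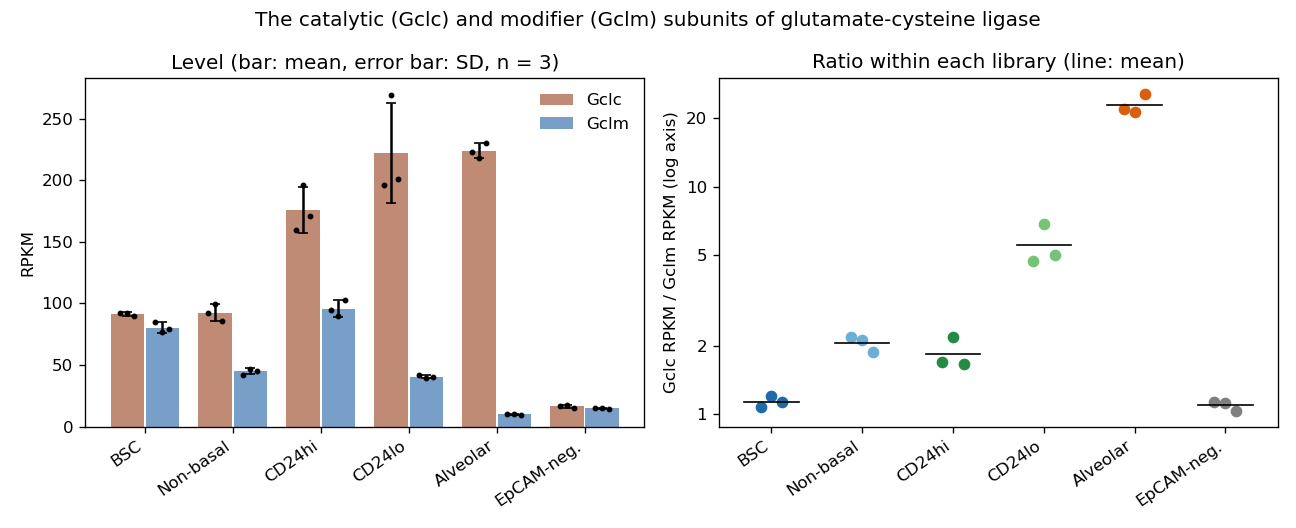
Left, RPKM of *Gclc* and *Gclm* in each population (bars, mean; error bars, SD over 3 libraries; points, libraries). Right, the ratio of the 2 values within each library (log axis; line, mean), which lies between 1.04 and 2.20 in BSCs, non-basal, CD24hi and EpCAM-negative cells, between 4.71 and 6.84 in CD24lo cells and between 21.3 and 25.4 in alveolar cells.

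*Slc7a11* (Entrez 26570, chr3:50364936-50499087) encodes the cystine importer xCT, which supplies cysteine for glutathione. It was scarce in all populations. CD24lo cells had 1.62, 1.97 and 1.60 RPKM and CD24hi cells 0.965, 1.16 and 0.904 RPKM. The tracheal and EpCAM-negative libraries lay between 0.215 and 0.395 RPKM, and the alveolar libraries at 0.0669, 0.110 and 0.0547 RPKM, which rest on 5 to 11 reads per library. *Gpx2* (Entrez 14776, chr12:76792335-76795554) encodes an epithelial glutathione peroxidase that reduces hydroperoxides. It had 278.4, 271.0 and 271.3 RPKM in non-basal cells, 249.0, 178.2 and 197.6 RPKM in CD24hi cells, and 248.2, 197.0 and 176.9 RPKM in BSCs. CD24lo cells had 193 ± 11.03 RPKM. These airway and tracheal libraries overlapped in part. Alveolar cells, at 12.1 ± 1.52 RPKM, and EpCAM-negative cells, at 1.61 ± 0.660 RPKM, lay far below them and differed from each other.

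*Txnrd1* and *Srxn1* serve the thioredoxin branch, as the reductase of thioredoxin and as sulfiredoxin, which restores overoxidised peroxiredoxins. *Txnrd1* (Entrez 50493, chr10:82833951-82897724) had 178.9, 190.2 and 177.1 RPKM in CD24hi cells and 85.6, 102.0 and 72.4 RPKM in CD24lo cells. It had 56.0 ± 6.92 RPKM in non-basal cells, 45.1 ± 7.49 RPKM in BSCs, 38.9 ± 1.40 RPKM in alveolar cells and 32.0 ± 2.55 RPKM in EpCAM-negative cells. From non-basal cells downwards, no neighbours in this order differed, although non-basal cells and BSCs did with the mouse as a block (edgeR adjusted p = 0.00898). *Srxn1* (Entrez 76650, chr2:152105524-152111376) shared the lead of CD24hi cells, with 80.6, 78.5 and 76.4 RPKM, followed by CD24lo cells, with 39.7, 39.9 and 31.1 RPKM. EpCAM-negative cells came next, at 27.5 ± 1.93 RPKM, then non-basal and alveolar cells, which did not differ, at 19.1 ± 1.27 and 18.9 ± 1.14 RPKM. BSCs were lowest, at 12.7, 11.4 and 9.36 RPKM, and 4 of the 5 neighbouring pairs differed.

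*Nqo1* (Entrez 18104, chr8:107388225-107403205) encodes a quinone reductase. CD24hi cells, at 49.3, 33.7 and 45.2 RPKM, and CD24lo cells, at 38.6, 33.7 and 41.3 RPKM, overlapped and led all other libraries. Non-basal cells had 11.4 ± 3.16, BSCs 8.37 ± 2.30 and EpCAM-negative cells 5.66 ± 0.685 RPKM. Alveolar cells had 2.73, 2.55 and 2.02 RPKM, the lowest libraries. *Hmox1* (Entrez 15368, chr8:75093618-75100593) encodes haem oxygenase 1, which degrades haem and is induced by haem through BACH1 as well as by NRF2. It ran in another order. Alveolar cells had 95.3, 87.2 and 94.3 RPKM and CD24lo cells 37.9, 70.2 and 49.2 RPKM. Non-basal, EpCAM-negative and CD24hi cells had 34.4 ± 4.69, 33.9 ± 4.73 and 27.4 ± 9.37 RPKM, with no difference between neighbours. BSCs had 13.8, 14.0 and 13.6 RPKM, below every other library.

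BSCs were compared with alveolar cells, the main comparison of the study. Of the 10 members 5 were higher in BSCs and 3 lower, where 30.5% of all genes tested were higher and 35.6% lower. *Gpx2* was 17.1-fold higher (log2 fold change 4.09 ± 0.18 SE, edgeR adjusted p = 1.13e-12) and *Gclm* 8.15-fold higher (3.03 ± 0.09 SE, adjusted p = 4.13e-15). *Nqo1* and *Slc7a11* were 3.42-fold and 3.10-fold higher, and *Nfe2l2* was 1.37-fold higher (0.46 ± 0.14 SE, edgeR adjusted p = 0.00670). In the other direction, *Hmox1* was 6.68-fold lower in BSCs (-2.74 ± 0.22 SE, edgeR adjusted p = 8.29e-09), *Gclc* 2.45-fold lower (-1.30 ± 0.12 SE, adjusted p = 1.70e-08) and *Srxn1* 1.70-fold lower. The libraries of the 2 populations did not overlap for these 8 members, as for 13435 of the 17989 genes tested. *Keap1* (-0.01 ± 0.10 SE) and *Txnrd1* (0.21 ± 0.13 SE, edgeR adjusted p = 0.166) did not pass the test, and *Txnrd1* passed without BSC replicate 1 (0.34, adjusted p = 0.0296) and when these 6 libraries alone were fitted, both without a block (0.27, adjusted p = 0.0446) and with the label number, which joins different mice, as a block (0.26, adjusted p = 0.0322). In bulk RNA, fewer cells of a type and less RNA per cell cannot be told apart, here or below. With library size in place of TMM, all genes shifted, from a median of -0.09 to 0.29 on the log2 scale, 7918 genes were higher and 4352 lower in place of 5481 and 6399, and *Keap1* (0.39, edgeR adjusted p = 0.00176) and *Txnrd1* (0.62, adjusted p = 0.000537) became higher, while the 8 calls above held.

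Among 41 other genes of the pathway, in 6 lists, 40 were tested between BSCs and alveolar cells, of which 15 were higher and 17 lower. Their median difference was -0.003 on the log2 scale, and that of all genes -0.09. Detoxification and export genes leaned to BSCs, with 7 of 9 higher, among them *Aldh3a1*, an aldehyde dehydrogenase (242 RPKM in BSCs, log2 fold change 5.12), and *Abcc1*, an exporter of glutathione conjugates (3.24), while *Akr1b8* (-1.26) and *Cbr1* (-0.29) were lower. Glutathione genes were divided, 4 higher and 4 lower of 9. The glutathione transferases *Gstm1* (3.51) and *Gsta3* (2.90) were higher, and *Mgst1* (-2.36) and *Gstp1* (-1.29) lower. Of 5 haem and iron genes, 0 were higher and 4 lower, with the haem transporter *Slc48a1* (-1.10) and the ferritin heavy chain *Fth1* (-1.04) the lowest beside *Hmox1*. Of 4 thioredoxin and peroxiredoxin genes, *Prdx6* was higher (1.42) and *Txn1* lower (-1.59). Of 6 NADPH genes, *G6pdx*, the entry of the pentose phosphate pathway, was higher (1.06), and 3 were lower, led by *Me1* (-1.91) and *Pgd* (-0.995). The regulators *Maff* (0.95) and *Mafk* (0.73), small MAF partners of NRF2, were higher and 3 of 7 were lower, among them the repressor *Bach1* (-0.54) and *Sqstm1* (-0.62), whose product sequesters KEAP1. Of 14 antioxidant enzymes that are not defined by NRF2, *Nqo2* alone was higher (0.37) and 11 were lower. The extracellular enzymes *Sod3* and *Gpx3* fell most, *Sod3* to at most 3 reads in a BSC library and *Gpx3* to 17 to 22 reads.

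**Figure D3:**
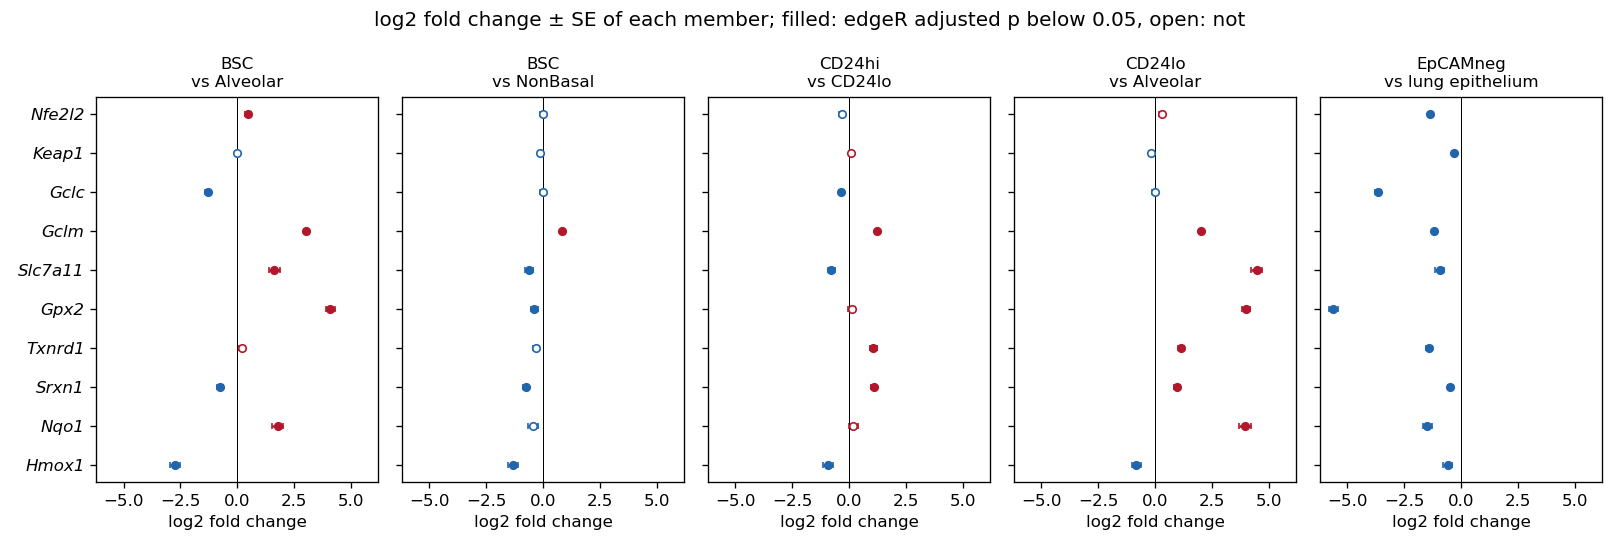
log2 fold change of the 10 members in the 5 comparisons (points; bars, SE, often within the point), filled where edgeR's adjusted p is below 0.05 and open elsewhere. Values right of 0 are higher in the first population named. *Hmox1* lies left of 0 in all 5 comparisons, *Gclm* right of 0 in the first 4, and all 10 members left of 0 in EpCAM-negative cells.

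BSCs were next compared with the non-basal cells of the same tracheas, a comparison within mice and organ. *Gclm* was the only member called higher in BSCs, 1.79-fold (log2 fold change 0.84 ± 0.08 SE, edgeR adjusted p = 6.88e-08), and 4 were lower, where 21.9% of all genes were higher and 26.2% lower. *Hmox1* was 2.49-fold lower (-1.32 ± 0.21 SE, edgeR adjusted p = 7.00e-05), *Srxn1* 1.71-fold lower (-0.77 ± 0.11 SE, adjusted p = 1.66e-05) and *Slc7a11* 1.54-fold lower (-0.62 ± 0.17 SE, adjusted p = 0.00636), a call lost when the tracheal libraries were thinned to the lung depth (-0.44, adjusted p = 0.0941). The libraries of the populations did not overlap for these 4 members or for *Gpx2*, as for 11670 of the 17989 genes tested. *Gpx2* was 1.32-fold lower, close to the threshold (-0.40 ± 0.15 SE, edgeR adjusted p = 0.0403), and the call was lost without BSC replicate 2 or 3 or any 1 of the 3 non-basal libraries (-0.41 to -0.30, adjusted p up to 0.183). *Nfe2l2*, *Keap1* and *Gclc* had log2 fold changes of -0.02, -0.13 and -0.02 and were not called. With the mouse as a block, *Nqo1* (-0.45 in both fits) passed, with an adjusted p of 0.00262 in place of 0.0768, and *Txnrd1* (-0.32) passed with an adjusted p of 0.00898 in place of 0.0603. Both also passed without particular libraries, *Nqo1* without BSC replicate 1 (-0.69) or non-basal replicate 3 (-0.60) and *Txnrd1* without BSC replicate 3 (-0.40) or non-basal replicate 1 (-0.41). *Txnrd1* passed as well with limma voom (-0.32, adjusted p = 0.0453) and with the length correction (-0.34, adjusted p = 0.0320). Mouse 1 had the highest *Nqo1* of both populations (11.0 RPKM in BSCs and 14.95 RPKM in non-basal cells) and the lowest *Txnrd1* (36.5 and 48.4 RPKM).

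Without TMM, by library size alone, the median of all genes shifted on the log2 scale from -0.02 to 0.31 and the split from 3948 higher and 4710 lower to 7784 and 2984. *Nfe2l2* (0.32, edgeR adjusted p = 0.0339) and *Gclc* (0.33, adjusted p = 0.0149) were then higher in BSCs and the calls of *Slc7a11* and *Gpx2* were lost, whereas *Gclm*, *Hmox1* and *Srxn1* kept theirs. The 4 secretory markers summed to 9837 to 11989 RPKM in BSCs and 102520 to 108500 RPKM in non-basal cells, and their part in these differences was not tested. The other pathway genes were mostly lower in BSCs, with 27 of 40 lower and 3 higher and a median difference of -0.72 on the log2 scale (all genes, -0.02). All 6 NADPH genes were lower, led by *Idh1* (-1.55) and *Pgd* (-1.03), which were at 49.4 and 58.0 RPKM in BSCs. So were 7 of 9 glutathione genes, with *Mgst1* at -2.33 and *Gsta3* at -1.30, 4 of 5 haem and iron genes, with *Blvrb* at -0.996 and *Fth1* at -0.86, 6 of 9 detoxification genes, with *Cbr1* at -1.53 and *Abcc4* at -1.36, and 3 of 4 thioredoxin and peroxiredoxin genes, with *Prdx1* at -0.99 and *Txn1* at -0.75. The 3 that were higher were *Ugdh* (0.67), *Gstm1* (0.53) and *Maff* (0.52), and *Sqstm1* (-0.75) was the 1 regulator lower. Of the 14 other antioxidant enzymes 8 were lower, among them *Sod1* (-1.13) and *Prdx5* (-0.98), and 0 higher, a list in which 3 passed as higher by library size alone.

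The airway gates of the lung were compared with each other, ciliated-enriched CD24hi against club-enriched CD24lo cells of the same mice. Of the members 3 were higher in CD24hi cells and 3 lower, where 27.8% of all genes were higher and 27.1% lower. *Gclm* was 2.37-fold (log2 fold change 1.24 ± 0.08 SE, edgeR adjusted p = 8.80e-10), *Srxn1* 2.13-fold (1.09 ± 0.11 SE, adjusted p = 1.98e-07) and *Txnrd1* 2.10-fold higher (1.07 ± 0.13 SE, adjusted p = 2.02e-06), with no overlap between libraries. *Hmox1* was 1.91-fold lower (-0.93 ± 0.21 SE, edgeR adjusted p = 0.00135), although CD24hi replicate 2, at 37.9 RPKM, met the lowest CD24lo library. *Slc7a11* was 1.71-fold lower (-0.78 ± 0.17 SE, edgeR adjusted p = 0.000634) with no overlap. Over all genes, libraries of these gates did not overlap for 9692 of the 17989 tested. *Gclc* was 1.26-fold lower (-0.34 ± 0.11 SE, edgeR adjusted p = 0.0177) with overlapping libraries, and it was not called without CD24lo replicate 2 (-0.18, adjusted p = 0.146), CD24hi replicate 1 (-0.27, 0.0570) or CD24hi replicate 3 (-0.32, 0.0517), nor by library size alone (-0.04), with only these 6 libraries fitted (-0.36, 0.126) or with the length correction (-0.26, 0.0639). *Nqo1* (0.17 ± 0.20 SE), *Keap1* (0.08 ± 0.11 SE) and *Gpx2* (0.11 ± 0.16 SE) did not pass, and *Nfe2l2* (-0.30) passed with the mouse as a block (adjusted p = 0.0171, against 0.0703) and without CD24lo replicate 1 (-0.41). By library size alone the median of all genes moved from -0.06 to 0.21, the split from 4994 higher and 4884 lower to 7004 and 3234, and *Keap1* (0.37) and *Gpx2* (0.40) became higher.

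The 4 ciliated markers summed to 389 to 931 RPKM in CD24lo cells, and *Foxj1*, the regulator of ciliated cells, was there at 11.3% of its CD24hi level, against 47.6% for *Txnrd1* and 47.0% for *Srxn1*. The part of ciliated cells in the CD24lo levels was not tested. The 40 other pathway genes had 10 higher and 19 lower in CD24hi cells and a median difference of -0.21 on the log2 scale (all genes, -0.06), and by library size alone 17 were higher. Of the NADPH genes 0 were higher and 5 of 6 lower, with *Idh1* at -2.86 and *Me1* at -1.26. Glutathione genes were divided, with 4 higher and 5 lower of 9. *Gstp1* (1.17) and *Gstm1* (0.49) were higher, and *Gsta3* (-2.47) and *Mgst1* (-2.23) lower. In the thioredoxin list, *Txnip* (1.32), whose product inhibits thioredoxin, and *Txn1* (0.59) were higher beside *Txnrd1*, and *Prdx6* (-1.25) and *Prdx1* (-0.32) lower. Detoxification genes had 3 higher and 4 lower of 9, with *Akr1b8* at 1.42 and *Cbr1* at 0.60, and *Aldh3a1* at -3.04 and *Abcc4* at -1.40. Haem and iron genes had 0 higher and 2 of 5 lower (*Blvrb* -1.15, *Slc48a1* -0.46), and the regulators *Maff* and *Mafk* went apart, at 0.44 and -0.58. Other antioxidant enzymes had 5 higher, led by *Nqo2* (1.65) and *Prdx5* (1.57), and 4 lower, among them *Cat* (-0.72) and *Txn2* (-0.61).

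CD24lo airway cells were compared with alveolar cells, both from the lungs of mice 4 to 6. Of the members 6 were higher in CD24lo cells and 1 lower, where 24.0% of all genes were higher and 24.2% lower. *Slc7a11* was 22.1-fold higher (log2 fold change 4.47 ± 0.23 SE, edgeR adjusted p = 3.04e-11), *Gpx2* 15.9-fold (3.99 ± 0.18 SE, adjusted p = 5.49e-12) and *Nqo1* 15.5-fold higher (3.95 ± 0.25 SE, adjusted p = 6.50e-10). The alveolar level of *Slc7a11* rests on 5 to 11 reads per library. *Gclm* was 4.10-fold, *Txnrd1* 2.23-fold and *Srxn1* 1.95-fold higher. *Hmox1* was 1.76-fold lower (-0.82 ± 0.21 SE, edgeR adjusted p = 0.00403). The libraries did not overlap for these 7 members, as for 10025 of the 17989 genes tested. *Gclc* (-0.01 ± 0.11 SE) and *Keap1* (-0.17 ± 0.11 SE) did not pass, and *Nfe2l2* (0.31 ± 0.14 SE, edgeR adjusted p = 0.0690) passed with the mouse as a block (0.30, adjusted p = 0.0178), without CD24lo replicate 1 (0.42) and by library size alone (0.33, adjusted p = 0.0389). In alveolar cells *Gpx2* was at 6.27%, *Nqo1* at 6.42% and *Slc7a11* at 4.46% of their CD24lo levels, while the club cell transcripts *Scgb1a1* and *Cyp2f2* were at 0.670% and 1.27%. Ciliated markers fell less, with a sum over 4 of them of 151 to 160 RPKM in alveolar and 389 to 931 RPKM in CD24lo cells. *Sftpc*, the surfactant transcript of alveolar type 2 cells, was at 2.70% of its alveolar level in CD24lo cells, against 56.8% for *Hmox1*. The part of cells from other gates in these levels was not tested. Macrophages, which also express *Hmox1*, were checked with 4 markers: the sum was 36541 to 44274 RPKM in alveolar cells and 865 to 1520 RPKM in CD24lo cells, of which *Lyz2*, also a gene of alveolar type 2 cells, made up nearly all. *Cd68* was at 14.0 ± 0.747 RPKM in alveolar cells and 10.2 ± 2.45 RPKM in CD24lo cells, with no overlap between libraries, and so in this pair was higher where *Hmox1* was higher. Means of *Cd68* in the other populations were 8.69 to 9.63 RPKM, with BSCs, the lowest in *Hmox1*, at 9.57 RPKM. *Marco* and *Mrc1* were at 0.209 and 0.431 RPKM in alveolar cells, against 0.134 and 0.541 RPKM in CD24lo cells. The study's sort of alveolar cells took those without CD45, which macrophages carry, and the part of macrophages in *Hmox1* was not tested.

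Of the 40 other pathway genes 20 were higher and 5 lower in CD24lo than in alveolar cells, and their median difference was 0.39 on the log2 scale (all genes, 0.03). They were led by 7 of 9 glutathione genes, with *Gsta3* at 3.54 and *Gstm1* at 2.97 and 0 lower, and by 6 of 9 detoxification genes, with *Aldh3a1* at 4.76 and *Cbr3* at 3.45 and 0 lower. *Prdx6* (2.29) and *Prdx1* (0.43) were higher and *Txn1* lower (-0.52). The NADPH genes *Idh1* (1.46) and *Taldo1* (0.37) were higher, and 3 were lower, led by *Me1* (-0.97) and *Tkt* (-0.69). Of the haem and iron genes *Ftl1* alone was called, 0.49 higher. The regulators *Maff* (0.73) and *Mafk* (0.63) were higher and *Bach1* (-0.58) lower. Of 14 other antioxidant enzymes 3 were higher, including *Sod1* (0.64) and *Nqo2* (0.40), and 7 lower, including *Sod3* (-1.37) and *Gpx3* (-1.35), whose levels were highest in EpCAM-negative cells. The 4 stromal markers summed to 116 to 196 RPKM in alveolar, 54.1 to 87.9 RPKM in CD24lo and 3885 to 4158 RPKM in EpCAM-negative cells, and their part in *Sod3* and *Gpx3* was not tested.

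**Figure D4:**
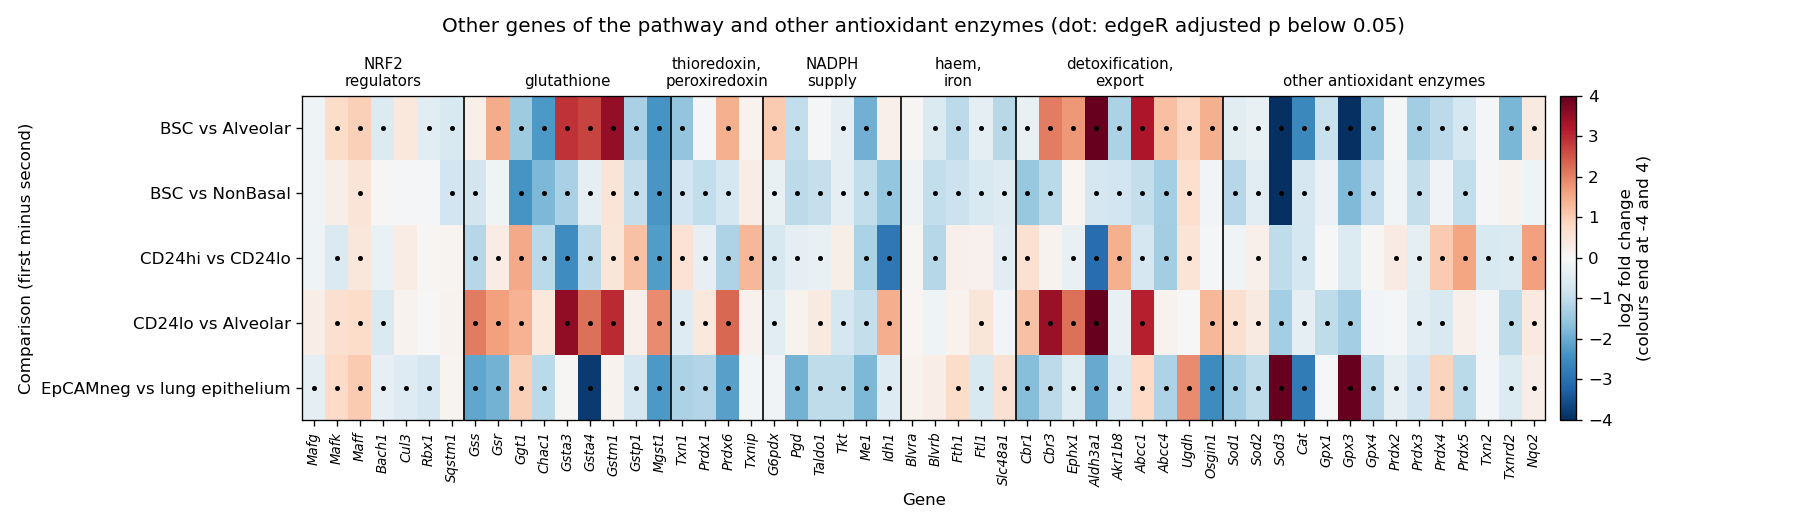
log2 fold change (colour, ending at -4 and 4) of 54 tested genes in 7 lists (columns) in the 5 comparisons (rows, first population minus second), with a dot where edgeR's adjusted p is below 0.05. Glutathione and detoxification genes are mostly red for CD24lo against alveolar cells (13 of 18 higher, 0 lower), and NADPH genes are blue for BSCs against non-basal cells (6 of 6 lower).

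EpCAM-negative cells were compared with the average, on the log scale, of the 3 lung epithelial populations. All 10 members were lower in EpCAM-negative cells, where 33.4% of all genes tested were lower and 35.5% higher. *Gpx2* was 48.7-fold lower (log2 fold change -5.60 ± 0.21 SE, edgeR adjusted p = 5.44e-14), *Gclc* 12.6-fold (-3.65 ± 0.12 SE, adjusted p = 8.75e-15), *Txnrd1* 2.66-fold and *Nfe2l2* 2.55-fold lower (-1.35 ± 0.12 SE, adjusted p = 1.39e-08). *Keap1* was 1.25-fold lower (-0.32 ± 0.09 SE, edgeR adjusted p = 0.00361). For these 5 members the EpCAM-negative libraries lay below all 9 epithelial libraries. Over all genes, they lay wholly above or below them for 7025 of the 17989 tested. The margin of *Keap1* was narrow, with an EpCAM-negative library at 9.754 RPKM and a CD24lo library at 9.763 RPKM. Against CD24lo cells alone *Keap1* did not pass (-0.24 ± 0.11 SE, edgeR adjusted p = 0.0634). For the other 5 members the EpCAM-negative and epithelial libraries overlapped, and the average hid a difference between gates. Against alveolar cells alone, EpCAM-negative cells were higher in *Slc7a11* (1.78 ± 0.27 SE, edgeR adjusted p = 1.71e-05), *Nqo1* (1.21 ± 0.27 SE, adjusted p = 0.000760), *Gclm* (0.60 ± 0.09 SE, adjusted p = 8.34e-06) and *Srxn1* (0.54 ± 0.11 SE, adjusted p = 0.000464), and *Txnrd1* did not differ (-0.28 ± 0.13 SE, adjusted p = 0.0748). *Hmox1* was lower than in alveolar (-1.45) and CD24lo cells (-0.63) and did not pass against CD24hi cells (0.31 ± 0.21 SE, edgeR adjusted p = 0.211). Erythroid markers, those of haem-rich red cells, summed to 35.4 to 301.4 RPKM over 3 genes in EpCAM-negative cells and to at most 27.1 RPKM in other libraries, and their part in *Hmox1* was not tested.

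Among the 40 other pathway genes 7 were higher and 26 lower in EpCAM-negative cells, and their median difference was -0.61 on the log2 scale (all genes, -0.01). Of 9 glutathione genes 6 were lower, with *Gsta4* at -3.82 and *Mgst1* at -2.30. Of 6 NADPH genes 5 were lower, with *Pgd* at -1.88 and *Me1* at -1.79, and of 4 thioredoxin and peroxiredoxin genes 3, with *Prdx6* at -2.17 and *Txn1* at -1.26. Detoxification genes had 7 lower, led by *Osgin1* (-2.50) and *Aldh3a1* (-2.03), and 2 higher, *Ugdh* (1.89) and *Abcc1* (0.80). The average again covered unlike gates: *Aldh3a1* was at 7.66 RPKM in EpCAM-negative and 6.99 RPKM in alveolar cells, and *Abcc1* at 13.8 RPKM in EpCAM-negative and 19.2 RPKM in CD24lo cells. Haem and iron genes had *Fth1* (0.73) and *Slc48a1* (0.62) higher and *Ftl1* (-0.62) lower. The regulators *Maff* (1.04) and *Mafk* (0.77) were higher, while 4 of 7 were lower, led by the ubiquitin ligase components *Rbx1* (-0.68) and *Cul3* (-0.52). Of the other antioxidant enzymes 4 were higher and 8 lower. *Sod3* (4.85, 1114 RPKM) and *Gpx3* (4.29, 2049 RPKM), both secreted, were the highest, and *Cat* (-2.80) and *Sod1* (-1.40) the lowest.

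Across the 18 libraries the members' patterns were set beside each other and beside all genes that reached a mean CPM of 10 by Pearson correlation of log2 CPM. The libraries of a population share its level, so these values describe 6 populations rather than 18 independent points. *Nqo1* and *Slc7a11* were the closest pair of members (r = 0.95), followed by *Nfe2l2* with *Gpx2* (0.87), *Nqo1* with *Txnrd1* (0.83) and *Gclm* with *Gpx2* (0.82). *Hmox1* and *Gclm* were farthest apart (-0.74). Among 10501 genes, those closest to *Txnrd1* were *Kif27*, *Ccdc17* and *Dnah11* (0.98 each), of which *Dnah11* encodes an axonemal dynein of motile cilia. Closest to *Gpx2* were *Cldn4*, an epithelial tight junction gene, *Syne4* and *Osgin1* (0.98 to 0.99), to *Gclm* *Nt5e*, *Anxa8* and *Ston2* (0.98 to 0.99) and to *Gclc* *Slc25a10*, *Chka* and *Fgf1* (0.98 to 0.99). *Hmox1* was closest to *Pfkfb4*, *Il34* and *Insig1* (0.93 to 0.96), *Nqo1* to *Rexo2*, *Cbr3* and *Stom* (0.92 to 0.93), *Srxn1* to *Calml4*, *Tnni3* and *Col8a2* (0.97 to 0.98) and *Nfe2l2* to *Cxadr*, *Ssx2ip* and *Pik3cb* (0.97 to 0.98). *Slc7a11* was closest to *Fign* (0.95), *Nqo1* and *Calcoco1*, and *Keap1*, whose level hardly varied, to *Zkscan6*, *Csnk2b* and *Eif2b1* (0.88 to 0.90).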

How the data were processed

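The deposited files hold counts for each Entrez gene and a gene length, with no normalization. The authors aligned single-end reads of 100 bases to mm10 with Rsubread and counted them with featureCounts (bcl2fastq 1.8.4 is named in the submitters' processing notes), and whether strand was used is not given in the sources used here. There were 0 rows without a gene, and symbols for 25275 identifiers came from NCBI's GRCm38.p6 table. The series' design text speaks of airway cells of 6 lungs; organ, mouse and population were taken from the sample labels.

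From the counts, RPKM were computed with the files' lengths and TMM-scaled library sizes. A gene entered the tests if its CPM exceeded 0.2 in 3 libraries or more. Testing was done in R 4.3.3 with edgeR 4.0.16 (glmQLFit and glmQLFTest, robust, a mean for each population, Benjamini-Hochberg adjustment). Replicates are separate mice by the labels. The p-values rest on the spread between mice within populations, which a gene's fit estimates jointly over all 18 libraries. They do not use the pairing of populations from the same mouse. Equal mouse numbers within an organ mark the same animal. Deviations from the population means of same-mouse libraries had correlations of 0.12 to 0.34 in trachea and -0.06 to 0.28 in lung. In lung they were 0.278, 0.0439 and 0.175 between CD24hi and CD24lo cells. Between CD24lo and alveolar cells they were near 0, at 0.0333, -0.0592 and 0.068. No replicate pair agreed within counting noise (chi-square per degree of freedom at least 3.51). In BSCs, non-basal, CD24hi and CD24lo cells, pairs with replicate 1 had values of 21.2 to 39.6. Replicates 2 and 3 of these populations had 5.23 to 7.43. In alveolar cells the pairs with replicate 2 had 38.1 and 36.2, and replicates 1 and 3 had 5.70. EpCAM-negative pairs had 3.51 to 7.51. The cause of this split was not tested. On simulated data for BSCs against alveolar cells (17474 genes), 56 of 99 2-fold and 88 of 100 4-fold changes were called, and 11 of 17275 unchanged genes. The simulation gave all populations the same mean profile and raised the changed genes in BSCs only. It therefore cannot give the power or the rate of false calls in the data, where 5481 genes were higher and 6399 lower.

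The members and gene lists were chosen with earlier results of these data known. Of the other lists, the text names in each comparison at most the 2 largest called rises and 2 largest called falls among genes with at least 10 CPM in a group compared. Genes most like a member are the 3 of highest correlation. *Abcc2* was not tested. By the GENCODE annotation of GRCm38, the exons of none of the 10 members overlap those of another protein-coding gene. Alternatives were limma 3.58.1 (voom), DESeq2 1.42.0, no filter or a stricter one (CPM above 1), scaling by RLE factors or by library size alone, fits restricted to the libraries in question, a length correction, thinned tracheal libraries, replicate blocks and leaving out each library. Leaving out libraries of the *Gclc* to *Gclm* ratio was added after seeing the data. The table of the whole series, of the same counts, was not used.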

Additional observations from a re-analysis of the deposited data

How the results depend on the processing

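Between 15 and 21 alternatives were run for each comparison of a member. All 10 lower calls in EpCAM-negative cells held in every alternative, as did the calls of *Gclm*, *Hmox1* and *Srxn1* in each comparison where they were made. Of the 830 alternative values of single members, 770 kept direction and side of the threshold, and so did all 18 of the *Gclc* to *Gclm* ratio within 1 SD. Values that changed sign lay between -0.13 and 0.11 in the reported fit, except *Txnrd1* in BSCs against non-basal cells (-0.31), and 3 of them passed as higher by library size alone. For BSCs against alveolar cells, *Keap1* (-0.01) was 0.0195 with DESeq2, 0.0464 with the label number as a block, 0.393 by library size alone, 0.00535 with no filter, 0.0462 with only these libraries, 0.0197 with RLE factors and -0.0428 to 0.0234 leaving out libraries. For BSCs against non-basal cells, the length correction gave *Nfe2l2* 0.0743. Library size alone gave *Gclc* 0.33, *Keap1* 0.21, *Nfe2l2* 0.32 and *Txnrd1* 0.0319, and leaving out libraries gave *Gclc* -0.0732 to 0.0319 and *Nfe2l2* -0.125 to 0.0757. For CD24hi against CD24lo cells, leaving out libraries gave *Gpx2* -0.0380 to 0.211 and *Keap1* -0.0579 to 0.170. For CD24lo against alveolar cells, *Gclc* (-0.01) was 0.0104 with DESeq2 and with RLE factors, 0.0114 by library size alone, 0.0423 with only these libraries and -0.157 to 0.0716 leaving out libraries.

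Library size alone moved counts most. For BSCs against alveolar cells it gave a median of 0.29 over all genes, 3 other antioxidant enzymes higher and 10 other NRF2 genes lower (main 1 and 17). For BSCs against non-basal cells it gave a median of 0.31, 7784 genes higher and 2984 lower, 3 members higher and 2 lower, 8 other NRF2 genes and 3 other antioxidant enzymes higher (main 3 and 0). For CD24hi against CD24lo cells it gave a median of 0.21, 3234 genes lower, 5 members and 17 other NRF2 genes higher. The length correction gave 5 other NRF2 genes and 1 other antioxidant enzyme higher in BSCs than in non-basal cells, and ended the calls of *Gpx2* there (-0.20) and of *Gclc* in CD24hi cells (-0.26). A fit of only the libraries compared gave 3 other antioxidant enzymes higher in CD24hi cells (main 5). Thinned tracheal libraries gave 0 higher in BSCs than in alveolar cells and ended the call of *Slc7a11* against non-basal cells (-0.44, edgeR adjusted p = 0.0941). Leaving out libraries gave 0 to 1 other antioxidant enzymes higher in BSCs than in alveolar cells (0 without BSC replicate 1 or alveolar replicate 3) and 4 to 7 lower in CD24hi cells (7 without CD24hi replicate 1). The replicate block by mouse changed the 4 calls given with the results (*Nqo1* and *Txnrd1* in BSCs against non-basal cells, *Nfe2l2* in both lung comparisons of CD24lo cells) and no other call of a member. The causes were not tested. Depth limits *Slc7a11*, at 5 to 11 reads in alveolar libraries. The RPKM of a gene uses 1 length in all populations, so a change of isoform would alter it.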
